A study of Homo sapiens with 6 samples.

Results

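The A-kinase anchoring protein genes AKAP1, AKAP5, AKAP6, AKAP7, AKAP8, AKAP9, AKAP10, AKAP11, AKAP12 and AKAP13 were taken by symbol from a table of normalized counts, and all 10 were found among its 35793 genes. A-kinase anchoring proteins are scaffolds that bind the regulatory subunits of protein kinase A (PKA), the cAMP-dependent kinase, through an amphipathic helix and hold the enzyme at a particular place in the cell. Most also bind phosphatases, phosphodiesterases or other kinases, so that a cAMP signal is read and ended locally. In heart muscle they are known for placing PKA beside calcium and potassium channels, the sarcoplasmic reticulum, the nuclear envelope and mitochondria.

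The samples were cardiomyocytes differentiated from human WTC11, an established induced pluripotent stem cell line, and their RNA was sequenced. One group was unedited WTC11 (wild type), and the other was a WTC11-derived line, STK25KO, with a homozygous CRISPR/Cas9 knockout of STK25, a serine/threonine kinase of the STRIPAK phosphatase complex. Both received no treatment, and 3 biological replicates of each were taken on day 15 of differentiation. With a single knockout line, the edit and any other difference between the lines cannot be told apart. Replicates of one genotype are not stated to come from separate differentiations, and p-values then measure the spread between these samples only.

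The libraries held from 22443904 to 53224112 reads assigned to genes. STK25 itself had 8874, 6774 and 8710 normalized counts in wild-type replicates 1 to 3 and 3906, 3434 and 3820 in the knockout, so no knockout library reached the lowest wild-type one (log2 difference -1.12, SE 0.19; adjusted p = 0.00903, limma). Without wild-type replicate 1 the adjusted p of STK25 was 0.0611, and with the replicate number as a block it was 0.0684 (limma). Of 9 cardiomyocyte markers all were tested, with 5 estimates above 0 and 4 below, and 1 was called, NKX2-5, which was lower (log2 fold change -1.71, adjusted p = 0.00135, limma). That is 11.1%, beside 12.8% of all tested genes. More of the 9 differed by looser measures. An unadjusted p under 0.05 (limma) was found for 6 of them, beside 27.5% of all tested genes. In 6 the wild-type and knockout libraries did not overlap, beside 33.4%. edgeR called 2 and DESeq2 6, beside 12.0% and 20.7%. The summed normalized count of the 9 ran from 1243890 to 1552440 in wild-type and from 1799220 to 3292250 in knockout libraries, and MYL7 was the largest part of it in every library. Wild-type replicate 2 and knockout replicate 1 stood apart from the other libraries on the second principal component, which carried 24.1% of the variance. The labels name no batch. Each member's estimate is also given below without both of these libraries.

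One anchoring protein gene, AKAP12, rose in the knockout, and none of the other 9 passed the test in either direction. The test was limma on log2(normalized count + 1) over all 15536 genes with a mean of at least 10, with Benjamini-Hochberg adjustment and a threshold of 0.05, and all 10 genes entered it. That is 1 of 10 members, beside 12.8% of all tested genes called, or 5.97% called higher and 6.79% lower. The wild-type and knockout libraries did not overlap in 2 of 10 members, AKAP12 and AKAP11, beside 33.4% of all tested genes. The estimates were above 0 in 3 members and below 0 in 7, with a median log2 fold change of -0.18, against 0.0052 over all tested genes. With all libraries scaled to equal totals the median over all genes moved to -0.27 and that of the members to -0.46. Single libraries moved the members' median as well, to 0.0084 with wild-type replicate 3 left out, -0.33 with wild-type replicate 2 left out, -0.067 with knockout replicate 1 left out and -0.28 with knockout replicate 2 left out. Counted in either direction, neither share of the members was above the share over all genes. By direction, 1 of 10 was called higher, beside 5.97%, and 0 of 10 lower, beside 6.79%, and the former rests on AKAP12 alone.

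**Figure D1:**
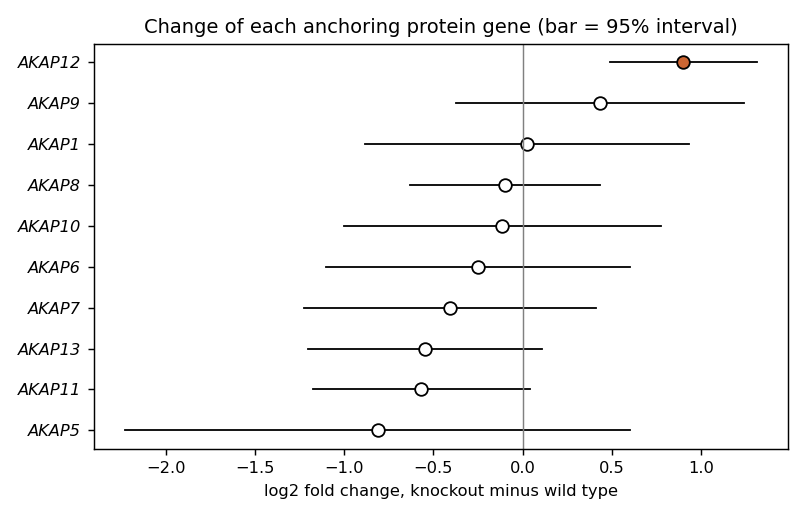
Log2 fold change (x axis, knockout minus wild type) of each of the 10 anchoring protein genes (y axis), with limma's 95% interval as a bar and a filled point where the adjusted p was under 0.05. Only the interval of AKAP12, from 0.49 to 1.31, lies wholly above 0; the other 9 include 0.

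AKAP12, also called gravin, is a large scaffold at the plasma membrane that binds PKA and protein kinase C. Its gene (ENSG00000131016.16) spans chromosome 6, plus strand, 151239999 to 151358557 (GENCODE 29, GRCh38). RefSeq (GRCh38.p14) lists 3 start sites for it, spread over the gene. All 10 members were matched to promoter windows of 300 bases, 17 in all, and 5 members had more than 1. The windows of AKAP12 are shown because its reads were summed over all 3 starts, so the rise cannot be assigned to one of them. Each runs 5′ to 3′ on the plus strand from 250 bases before to 50 bases after the start, and capitals mark the GC box GGGCGG, the CCAAT box CCAAT and the TEAD core GGAATG.
Upstream start, chr6:151239717-151240016: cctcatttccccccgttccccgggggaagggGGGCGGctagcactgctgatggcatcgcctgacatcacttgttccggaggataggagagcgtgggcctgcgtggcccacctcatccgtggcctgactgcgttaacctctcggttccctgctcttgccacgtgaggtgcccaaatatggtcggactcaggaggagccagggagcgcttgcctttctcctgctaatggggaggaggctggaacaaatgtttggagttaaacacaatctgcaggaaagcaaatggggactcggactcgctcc
Middle start, chr6:151325281-151325580: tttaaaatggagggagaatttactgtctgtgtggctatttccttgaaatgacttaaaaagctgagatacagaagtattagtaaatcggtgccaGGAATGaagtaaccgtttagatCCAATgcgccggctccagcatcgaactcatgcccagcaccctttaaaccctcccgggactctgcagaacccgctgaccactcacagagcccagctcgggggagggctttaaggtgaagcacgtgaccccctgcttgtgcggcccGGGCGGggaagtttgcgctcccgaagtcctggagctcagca
Downstream start, chr6:151341456-151341755: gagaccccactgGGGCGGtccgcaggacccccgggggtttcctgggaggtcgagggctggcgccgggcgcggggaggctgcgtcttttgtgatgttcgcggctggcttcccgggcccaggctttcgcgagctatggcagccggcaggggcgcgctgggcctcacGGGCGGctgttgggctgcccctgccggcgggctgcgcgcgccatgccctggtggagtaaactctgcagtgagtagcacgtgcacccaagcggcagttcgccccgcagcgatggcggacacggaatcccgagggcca
Motifs were searched on both strands. A GC box was in all 3 windows, and in 13 of the 17 member windows against 45.0% of 35116 windows of all genes. Member windows ran from 38.3% to 78.7% GC, against a median of 58.7% over all windows, and the shares were not matched for GC. Windows of AKAP1 overlap in part, so some matches, TGACG among them, are counted again. The CCAAT box (34.6% of all windows) and the TEAD core (14.03%) were both in the middle window only. The cAMP response element TGACGTCA, found in 1.85% of all windows, was in none of the 17. Its core TGACG, which lies inside that element and is in 24.6% of all windows, was in 7 member windows, those of AKAP1, AKAP7, AKAP8 and AKAP9. A match is a description of these letters and not a site.

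AKAP12 had 2933, 2708.5 and 2694 normalized counts in wild-type replicates 1 to 3 and 5405, 5700 and 4541 in knockout replicates 1 to 3. Every knockout library was above every wild-type library, and the wild-type values lay close together. The mean rose from 2779 ± 134 to 5215 ± 602 (SD, n = 3 each), or 1.88-fold. On the log2 scale this was 0.90 (SE 0.18, adjusted p = 0.0160, limma). Exact permutation of the 3 against 3 libraries, two-sided, gave p = 0.1, and no smaller p is possible with so few. On reads recovered from the table, edgeR (quasi-likelihood) gave an adjusted p of 0.02002 and DESeq2 one of 4.0e-05, tools that called 12.0% and 20.7% of all genes. Leaving out replicate 1 or replicate 3 of the wild type, or replicate 2 of the knockout, ended the call (adjusted p = 0.0746, 0.0744 and 0.0633, limma), while the estimate stayed between 0.84 and 1.00 in all 6 fits that left out 1 library. With equal totals the estimate was 0.62 and the adjusted p 0.0963. Without both wild-type replicate 2 and knockout replicate 1 it was 0.86 (adjusted p = 0.00180).

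AKAP12 is also known from fibroblasts, smooth muscle and endothelial cells, so markers of cells other than cardiomyocytes were read beside it. Beside each list below stand 12.8% of all tested genes called with limma, 5.97% higher and 6.79% lower. Of 6 smooth muscle markers, some of which young cardiomyocytes also express, 3 were called higher (MYH11, CNN1 and SMTN) and 0 lower. Their summed normalized count was 20474 to 27530 in wild-type and 51044 to 62282 in knockout libraries. It was mostly CNN1, whose mean went from 18278 to 37182, while that of MYH11 went from 254 to 8493. ACTG2, LMOD1 and DES were not called. Of 9 fibroblast and stromal markers 4 were called higher and 1 lower, with sums from 12981 to 26550 and from 8414 to 16844. The estimates were above 0 in 6 and below 0 in 3. The wild-type sum was mostly COL1A1 and COL1A2, whose means went from 10227 to 4792 and from 7514 to 240. The markers called higher were COL3A1, DCN, THY1 and TCF21, and the one called lower was COL1A2. Of 8 endothelial markers 4 were tested and 0 called with limma (0 with edgeR and 0 with DESeq2), with 1 at an unadjusted p under 0.05 beside 27.5% of all tested genes, sums from 174 to 478 and from 418 to 584, and at most 3 reads in every library for CDH5, TIE1 and ERG. Of 6 epicardial markers 1 of 5 tested was called higher (ALDH1A2), with sums from 237 to 326 and from 568 to 852 and at most 3 reads of MSLN in every library. Of 8 neural markers 3 of 4 tested were called higher, with sums from 58.0 to 121 and from 449 to 830 and at most 3 reads of SOX1 and NEUROG2. Of 7 endoderm markers 1 of 3 tested was called lower (AFP), with sums from 1671 to 3009 and from 1205 to 1252 and at most 3 reads of FOXA2 in every library. The endoderm sum was mostly APOA1, which was not called (means of 2026 and 1195, adjusted p = 0.136, limma), while the means of AFP were 104 and 2.03. Of 6 pluripotency markers 1 of 5 tested was called higher (TDGF1), with sums from 960 to 1043 and from 3098 to 4469. TDGF1 was the largest part of that sum, with means of 560 in the wild type and 3516 in the knockout. The estimates were above 0 in 4 and below 0 in 1, ZFP42, whose means were 47.6 and 11.3. The part of any of these cells in the rise of AKAP12 was not tested, and in bulk RNA more cells of a type and more RNA per cell cannot be told apart.

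The genes whose values ran most like those of AKAP12 over the 6 libraries were HIVEP1, TDRD3 and NAT1, with Pearson correlations of log2 values of 0.998, 0.997 and 0.993. HIVEP1, a zinc finger protein, had 344, 324 and 310 normalized counts in the wild type and 699, 704 and 587 in the knockout. TDRD3, a Tudor domain protein, had 807, 790 and 790 in the wild type and 1539, 1562 and 1255 in the knockout. The 6 libraries fall into the 2 genotypes, and 300 of the 13035 genes compared had a correlation of at least 0.95 with AKAP12, so these 3 are a description of likeness only.

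**Figure D2:**
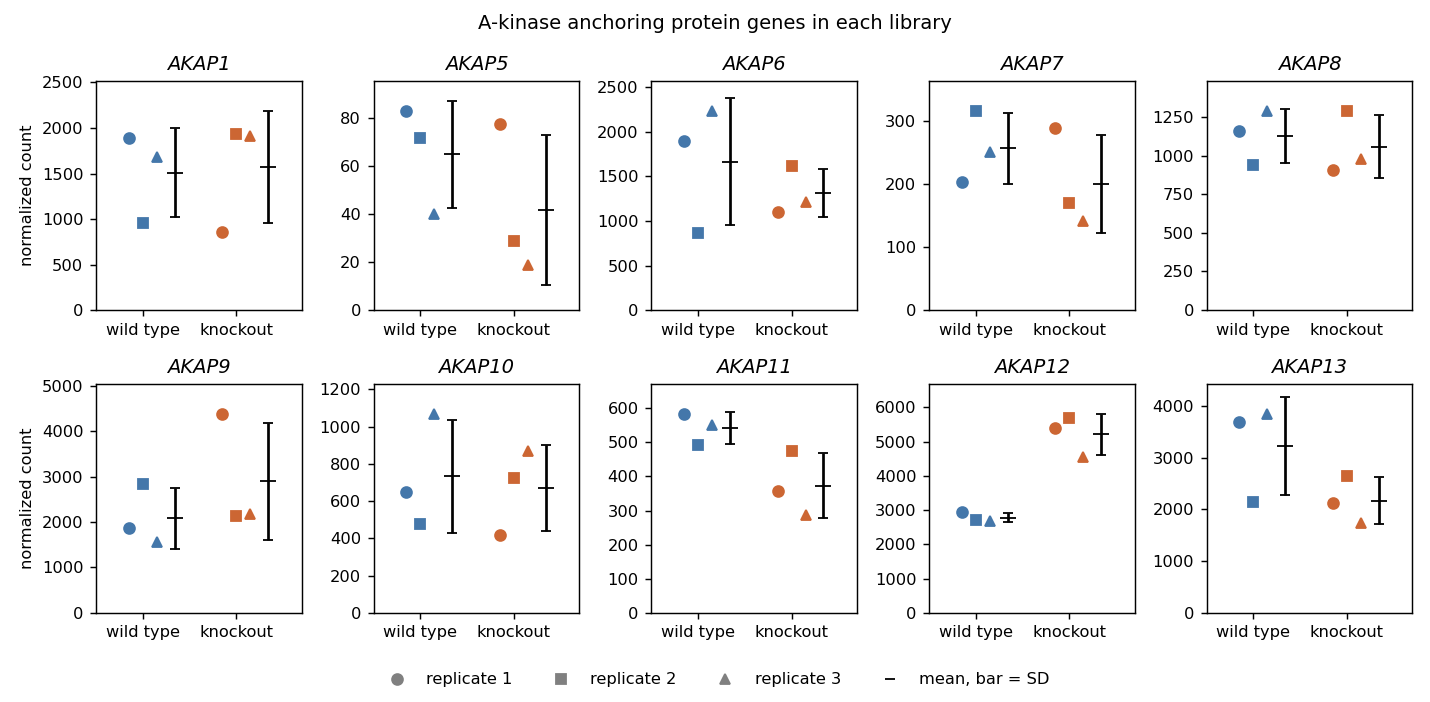
Normalized count (y axis, from 0, a separate scale for each gene) of the 10 anchoring protein genes in wild-type and knockout libraries, with a symbol for each replicate and the mean and SD beside them. AKAP12 and AKAP11 are the genes whose 2 groups do not overlap.

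AKAP6, AKAP7, AKAP9 and AKAP5 are the anchors best known at cardiac membranes. AKAP6 (mAKAP) sits at the nuclear envelope and holds PKA near the ryanodine receptor, a phosphodiesterase and calcineurin. It had 1891, 863 and 2232 normalized counts in wild-type replicates 1 to 3 and 1102, 1614 and 1213 in the knockout. The knockout libraries lay inside the wild-type range, which was set by the low replicate 2. The log2 fold change was -0.25, with a 95% interval from -1.10 to 0.60 (adjusted p = 0.723, limma). Without wild-type replicate 2 and knockout replicate 1 it was -0.55 and past the threshold (adjusted p = 0.0408, limma), in a fit that called 4706 of 15381 tested genes.

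AKAP9 (yotiao) anchors PKA to the KCNQ1 potassium channel and also, as a longer form, to the Golgi and centrosome. It had 1859, 2841 and 1553 normalized counts in the wild type and 4393, 2128 and 2176 in the knockout. Knockout replicate 1 was the highest, and the other 2 knockout libraries lay inside the wild-type range. The log2 fold change was 0.44 (95% interval -0.37 to 1.25, adjusted p = 0.476, limma). It was 0.093 without knockout replicate 1, 0.68 without wild-type replicate 2 and 0.34 without both. Gene totals do not separate the 2 forms.

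AKAP7 (AKAP15/18) links PKA to the L-type calcium channel and to phospholamban. It was low, with 204, 316 and 251 normalized counts in the wild type and 289, 169 and 142 in the knockout, and the groups overlapped through knockout replicate 1 (log2 fold change -0.40, 95% interval -1.22 to 0.41, adjusted p = 0.519, limma). Its estimate was -0.70 without knockout replicate 1, -0.24 without wild-type replicate 2 and -0.54 without both, and -0.19 without knockout replicate 3. AKAP5 (AKAP79), which groups PKA, calcineurin and protein kinase C at membrane receptors and calcium channels, was the lowest member. It had 55, 94 and 63 reads in the wild type and 61, 26 and 21 in the knockout, or 83.1, 71.6 and 40.2 against 77.5, 28.98 and 18.7 normalized counts. Its log2 fold change of -0.81 had the widest interval of the 10, from -2.23 to 0.60, and included 0 (adjusted p = 0.445, limma). Leaving out 1 library gave from -1.38, without knockout replicate 1, to -0.38, without knockout replicate 3, and leaving out both wild-type replicate 2 and knockout replicate 1 gave -1.28.

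AKAP13 (AKAP-Lbc) is a guanine nucleotide exchange factor for RhoA as well as an anchor, and has been studied in cardiac hypertrophy. It had 3690, 2146 and 3856 normalized counts in the wild type and 2129, 2638 and 1732 in the knockout. Wild-type replicate 2 fell among the knockout values and the other wild-type libraries lay above all 3 of them. The log2 fold change was -0.55 (95% interval -1.21 to 0.11, adjusted p = 0.259, limma). Without wild-type replicate 2 and knockout replicate 1 it was -0.82 with an adjusted p of 0.00823 (limma). In that fit of 2 against 2 libraries, which was added after the data were seen, 3 members passed, AKAP12 higher and AKAP6 and AKAP13 lower. That is 3 of 10 members beside 4706 of 15381 tested genes, where the main fit called 1982 of 15536. The gain in calls is thus not particular to the members.

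AKAP11 (AKAP220), an anchor that also binds glycogen synthase kinase 3 and a type 1 phosphatase, was the other member with separated groups. It had 585, 493 and 550 normalized counts in the wild type and 356, 476 and 286 in the knockout, and the highest knockout library was just under the lowest wild-type one. The mean was 542 ± 46.3 in the wild type and 373 ± 96.0 in the knockout (SD, n = 3 each). The log2 fold change was -0.57 (95% interval -1.18 to 0.040) and did not pass (adjusted p = 0.211, limma), nor did it in any fit without 1 library, where adjusted p-values ran from 0.153 to 0.474. Without wild-type replicate 2 and knockout replicate 1 the estimate was -0.62 (adjusted p = 0.111, limma).

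AKAP1, AKAP10 and AKAP8 serve mitochondria, endosomes and the nucleus. AKAP1, which holds PKA at the outer mitochondrial membrane, had 1888, 956 and 1676 normalized counts in the wild type and 858, 1938 and 1915 in the knockout. Wild-type replicate 2 and knockout replicate 1 were low, and the other 4 libraries lay between 1676 and 1938 (log2 fold change 0.025, 95% interval -0.88 to 0.93, adjusted p = 0.979, limma). Its sign changed with equal totals (-0.26) and with equal upper quartiles (-0.023), and without the low pair of libraries it was 0.11. AKAP10, an anchor with regulator of G protein signalling domains, had 651, 478 and 1070 normalized counts in the wild type and 417, 724 and 868 in the knockout (log2 fold change -0.11, 95% interval -1.0 to 0.77, adjusted p = 0.890, limma). AKAP8 (AKAP95), a nuclear anchor tied to chromatin condensation, had 1162, 939 and 1285 normalized counts in the wild type and 908, 1288 and 975 in the knockout. Its interval was the narrowest among the members that did not pass, from -0.63 to 0.43 around -0.099 (adjusted p = 0.835, limma). Without wild-type replicate 2 and knockout replicate 1 the estimates were -0.073 for AKAP10 and -0.12 for AKAP8. AKAP8 has a neighbouring paralog, AKAP8L, and reads could have been split between them. AKAP1, AKAP7, AKAP8 and AKAP13 share exon bases with genes on the opposite strand in GENCODE 29. Whether strand was used is not stated, so reads of those partners cannot be told apart.

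Within a genotype, the spread of most members followed 2 libraries. In 4 members, AKAP1, AKAP6, AKAP8 and AKAP10, wild-type replicate 2 and knockout replicate 1 were each the lowest of their genotype, and in AKAP7 and AKAP9 each was the highest. These 2 libraries were thus at the same end in 6 of 10 members, or 60.0%, and in 60.4% of all tested genes, a share that is not particular to the members. AKAP12 was in neither set, and its largest deviation from a genotype mean was -0.19 on the log2 scale, in knockout replicate 3. The widest spread was that of AKAP5 in the knockout, from -0.87 to 1.13.

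**Figure D3:**
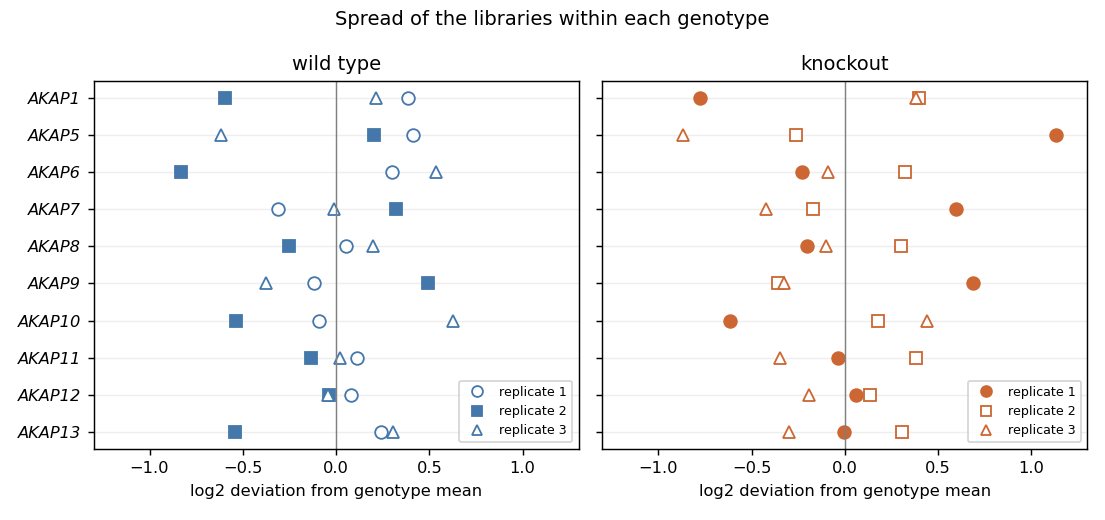
Deviation of each library's log2(normalized count + 1) from the mean of its genotype (x axis) for the 10 anchoring protein genes (y axis), wild type on the left and knockout on the right, with wild-type replicate 2 and knockout replicate 1 filled. The filled points fall on the same side of 0 in every gene except AKAP12.

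Levels of different genes were compared per kilobase of the longest GENCODE 29 transcript. In the wild type the order of mean normalized counts per kilobase was AKAP1 (352 ± 114), AKAP12 (330 ± 15.9), AKAP8 (307 ± 47.7), AKAP13 (244 ± 71.4), AKAP10 (180 ± 74.7), AKAP9 (167 ± 54.0), AKAP6 (111 ± 47.5), AKAP7 (87.0 ± 19.1), AKAP11 (54.7 ± 4.67) and AKAP5 (10.01 ± 3.42; SD, n = 3 each). Library ranges of neighbours in this order overlapped except at its lower end, where AKAP7 lay above AKAP11 and AKAP11 above AKAP5. In the knockout AKAP12 was first, at 619 ± 71.4 per kilobase, and its lowest library (539) was above the highest of AKAP1 (452), which was second at 367 ± 144. The other ranges of neighbours that did not overlap in the knockout were AKAP13 above AKAP6, AKAP7 above AKAP11 and AKAP11 above AKAP5. Some of this depended on the length used. Per kilobase of merged exons the ranges of AKAP7 and AKAP11 overlapped in both genotypes, and AKAP8 lay wholly above AKAP13 in the wild type.

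As a share of the 10 members' summed level per kilobase, AKAP12 held 17.7%, 21.0% and 15.7% in wild-type replicates 1 to 3 and 33.3%, 30.1% and 27.9% in the knockout. AKAP13 held 14.2%, 10.6% and 14.3% in the wild type and 8.38%, 8.89% and 6.79% in the knockout. AKAP11 held 3.01%, 3.24% and 2.72% against 1.87%, 2.14% and 1.49%. AKAP8, whose own fold change was near 0, held 16.1%, 16.7% and 17.2% against 12.9%, 15.6% and 13.8%. The share of AKAP12 was higher, and those of AKAP13, AKAP11 and AKAP8 lower, in every knockout library than in every wild-type library, although shares of one total are not independent of each other. AKAP12 is part of the total, so its higher value by arithmetic lowers the shares of the others, and these separations are not separate results. The levels per kilobase of AKAP8 overlapped, at 316, 256 and 350 in the wild type and 247, 351 and 266 in the knockout. Those of AKAP13 overlapped as well. The summed level itself was 1843 ± 271 per kilobase in the wild type and 2033 ± 184 in the knockout (SD, n = 3 each), and its library ranges overlapped. With merged exon length in place of the longest transcript, AKAP12 was first in both genotypes, at 318 and 597 per kilobase.

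**Figure D4:**
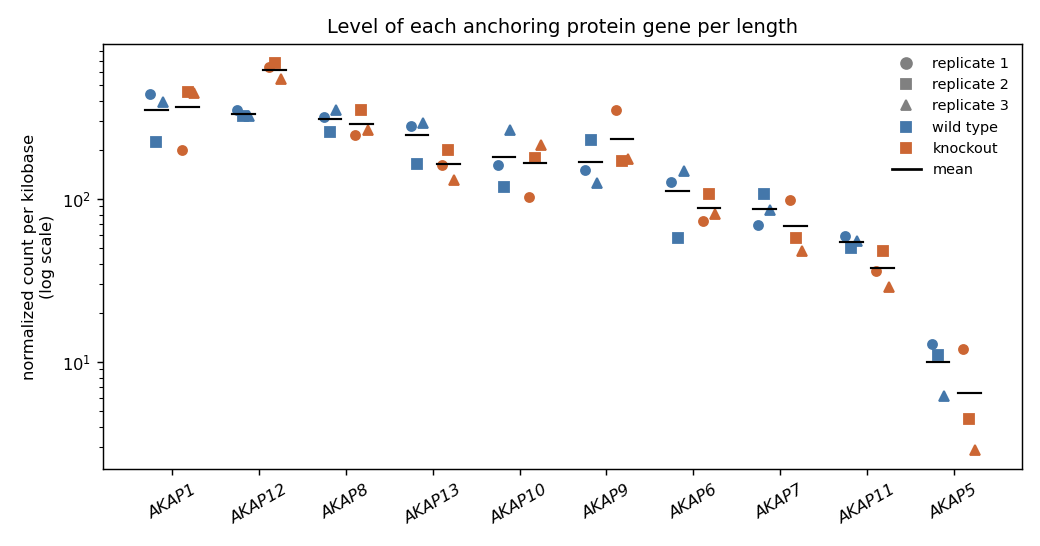
Normalized count per kilobase of the longest transcript (y axis, log scale) for the 10 anchoring protein genes, in the order of their wild-type means, with a symbol for each library and a line at each mean. The levels span from 2.88 for AKAP5 in knockout replicate 3 to 676 for AKAP12 in knockout replicate 2.

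Beyond the 10, 26 more genes for proteins reported to anchor PKA, some of them also with AKAP in the symbol, were in the table, and 21 of these were tested. Of these 3 were called higher and 1 lower (4 of 21, or 19.0%, beside 12.8% of all genes), with a median log2 fold change of 0.24 that was -0.038 with equal totals. SPHKAP, an anchor for type I PKA found in heart, had 1155, 801 and 964 normalized counts in the wild type and 233, 261 and 190 in the knockout. Every knockout library was below every wild-type one (log2 fold change -2.09, SE 0.25, adjusted p = 0.00225, limma), and it was called in all 6 fits that left out 1 library. SYNM, the intermediate filament protein synemin, had 503, 539 and 691 normalized counts against 1485, 1206 and 1067 (log2 fold change 1.11, SE 0.23, adjusted p = 0.0195, limma). GSKIP, which joins PKA to glycogen synthase kinase 3, had 2128, 1837 and 2164 against 3006, 4059 and 4242 (log2 fold change 0.87, SE 0.20, adjusted p = 0.0305, limma). C2orf88, the small membrane anchor smAKAP, was low, at 30.2, 30.5 and 70.2 against 207, 135 and 116 normalized counts (log2 fold change 1.86, SE 0.47, adjusted p = 0.0388, limma). With equal totals or with the replicate block none of these 3 higher genes passed. C2orf88 did not pass with edgeR, with no filter on low values or without both wild-type replicate 2 and knockout replicate 1, and GSKIP did not without a variance trend. In the fit without both libraries 6 of these anchor genes were called, SPHKAP, SYNM and GSKIP among them. Leaving out single libraries, SYNM, GSKIP and C2orf88 all lost their call without library 1 of the wild type and without library 2 or 3 of the knockout. GSKIP and C2orf88 lost it also without wild-type library 2, GSKIP without wild-type library 3 and C2orf88 without knockout library 1.

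Of the genes with AKAP in their symbol outside the 10, chosen here after their values were seen, the most abundant was PALM2AKAP2, with 8140, 5235 and 7879 normalized counts in the wild type and 6187, 9586 and 7085 in the knockout (log2 fold change 0.11, adjusted p = 0.840, limma). AKAP8L had 5519, 4134 and 6171 against 5429, 7626 and 7022 (log2 fold change 0.35, adjusted p = 0.379, limma). Both pairs of groups overlapped. AKAP14, known from cilia, had 0 reads in every library, which allows up to 3 reads in each.

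Of 11 genes for PKA subunits and inhibitors 10 were tested and 1 was called, a share of 10% beside 12.8% of all genes, and 4 of the 10 had an unadjusted p under 0.05 beside 27.5%. The called gene was the inhibitor PKIB (higher; 430, 431 and 482 against 2287, 2971 and 3288 normalized counts). Summed per kilobase, the 4 regulatory subunits had 5118 ± 825 in the wild type and 6664 ± 265 in the knockout (SD, n = 3 each), most of it PRKAR1A. PRKAR1A went from 3982 ± 682 to 5751 ± 262 and PRKAR2B from 630 ± 179 to 320 ± 111. Their adjusted p-values were 0.131 and 0.103 (limma). PRKAR1B and PRKAR2A went from 242 to 308 and from 264 to 285, and DESeq2 called PRKAR2B alone of the 4. The summed level of the 10 anchors over that of the regulatory subunits was 0.375, 0.361 and 0.346 in the wild type and 0.301, 0.324 and 0.289 in the knockout, lower in all 3 knockout libraries. This ratio rests mainly on PRKAR1A, while PRKAR2B moved the other way, so it does not describe each subunit.

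Among 32 enzymes reported in anchor complexes, 2 were called higher and 2 lower (12.5%, beside 12.8% of all genes), with a median log2 fold change of 0.12 that was -0.16 with equal totals. The higher genes encode catalytic subunits of calcineurin, a phosphatase bound by AKAP5 and AKAP6. PPP3CB, the remaining catalytic subunit gene of that list, was not called (log2 fold change -0.18, adjusted p = 0.789, limma), and its groups overlapped. PPP3CA had 310, 560 and 369 normalized counts in the wild type and 1265, 935 and 776 in the knockout (log2 fold change 1.279, SE 0.30, adjusted p = 0.0318, limma). PPP3CC had 1133, 822 and 1259 against 1984, 2066 and 2183 (log2 fold change 0.98, SE 0.22, adjusted p = 0.0252, limma). The lower ones were the phosphodiesterase PDE4B and ADCY6, a main adenylyl cyclase of heart muscle. ADCY6 had 2965, 2066 and 2745 normalized counts against 1664, 1146 and 1394 (log2 fold change -0.89, SE 0.23, adjusted p = 0.0433, limma). PDE4B was low, at 49.8, 86.8 and 103 against 26.7, 16.7 and 15.1 (log2 fold change -1.96, SE 0.49, adjusted p = 0.0384, limma). Leaving out wild-type library 1 or 3, or knockout library 2 or 3, ended all 4 calls. PDE4B lost its call also without wild-type library 2, PPP3CA without knockout library 1 and PPP3CC with equal totals. None of the 4 passed with the replicate block, PDE4B alone did without a variance trend, and PPP3CA and PPP3CC alone did with no filter on low values.

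Of 18 cardiac channels, receptors and substrates reported in anchor complexes 16 were tested, 0 were called higher and 1 lower (6.25%, beside 12.8% of all genes). The lower gene was PLN, phospholamban, the sarcoplasmic reticulum regulator that AKAP7 binds, with 53745, 61557 and 51495 against 34273, 31287 and 32532 normalized counts (log2 fold change -0.76, SE 0.20, adjusted p = 0.0459, limma). Of the 6 fits that left out 1 library, PLN was called only in the one without knockout replicate 1. Of 14 nuclear, Golgi and mitochondrial partners 0 were called with limma, edgeR or DESeq2, beside 12.8%, 12.0% and 20.7% of all genes. An unadjusted p under 0.05 with limma was found for 2 of the 14, beside 27.5% of all tested genes.

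**Figure D5:**
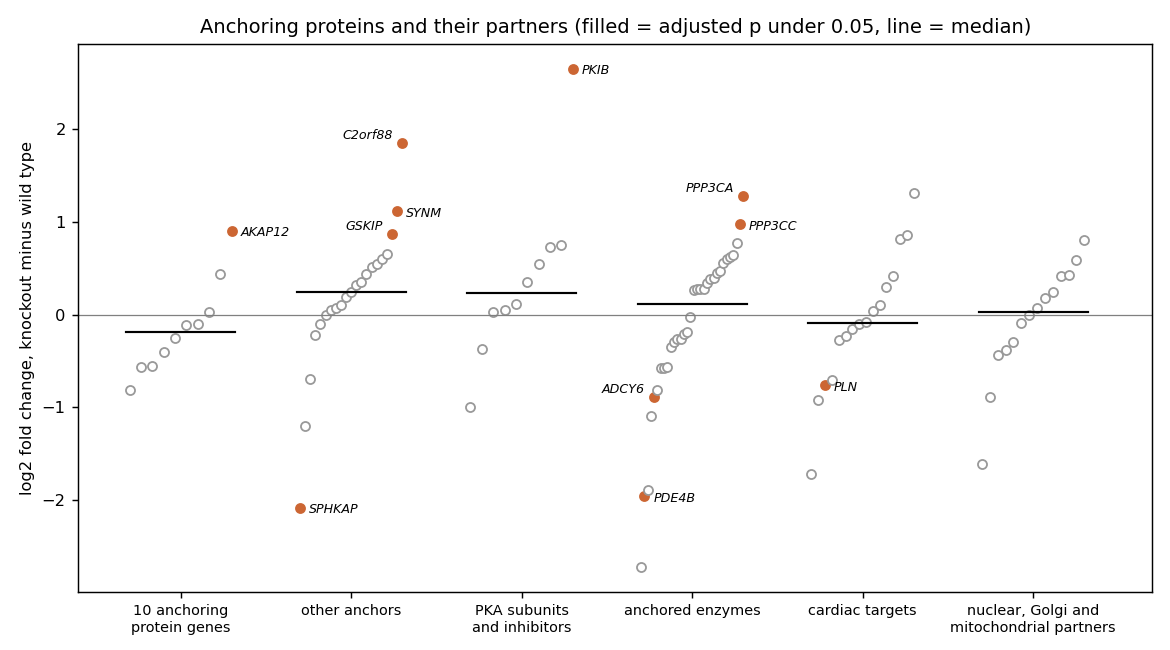
Log2 fold change (y axis, knockout minus wild type) of every tested gene of the 10 anchoring proteins and 5 lists of related genes (x axis, genes in order of their value within a list), filled and named where the adjusted p was under 0.05, with a line at each median. The named genes number 1 among the 10 members, 4 among other anchors, 1 among PKA subunits and inhibitors, 4 among anchored enzymes, 1 among cardiac targets and 0 among the other partners.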

How the data were processed

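The deposited table held 1 signal per gene symbol and library, which the authors call normalized counts. The submitters' processing notes list bcl2fastq 2.19, kallisto 0.44.0, DESeq2 1.28.1 and GRCh38 without roles; annotation and strand are not given in the sources used here. Per the labels' protocols, cDNA was made with Clontech Ultra Low v4 and libraries with NexteraXT. All values (100%) were whole multiples of 1 step per library within 0.01, so reads were recovered by division; 0 columns were unused. If kallisto made them, these are rounded estimates. No unique molecular identifiers are mentioned, so counting limits cover counting error only.

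limma 3.58.1 (R 4.3.3, eBayes with trend) was run on log2(value + 1) for all 15536 genes with a mean of at least 10, 3 against 3 libraries, no covariate. edgeR 4.0.16 and DESeq2 1.42.0 on recovered reads were alternatives, beside other pseudocounts (0.1, 10), filters, scalings, variance models, a replicate block and leaving out libraries. Fits were tested on simulated reads drawn independently for each library. The simulation held no difference shared by many genes of a library, so it does not show how the fits perform with the spread seen here. Same-numbered libraries had correlations of deviations from -0.40 to 0.17. Deviations sum to 0 within a genotype, so these values cannot decide whether numbers pair samples. The labels do not say either. Replicates differed by more than sampling noise, with chi-square over degrees of freedom from 19.95 to 391.

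Named are the 10 members, STK25, listed partners with an adjusted p under 0.05, and the 3 genes closest to a called member with a mean of at least 50. Other anchors, subunits and markers named were chosen after their values were seen. One listed cardiac partner is not reported here and is left out of its list's counts. Members and lists were chosen with earlier results of these data known. Figures used Python 3.11.15 and matplotlib 3.10.9.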

Additional observations from a re-analysis of the deposited data

How the results depend on the processing

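The rise of AKAP12 kept its direction under every alternative run, with estimates from 0.62 to 1.00. The number of members called was 0 with equal totals and with the replicate number as a block, and 3 without both wild-type replicate 2 and knockout replicate 1; the cause was not tested. With the replicate block AKAP12 had an adjusted p of 0.115 (limma), and 1 of the other anchors, 0 anchored enzymes, 0 cardiac targets and 798 of all genes were called. Whether the numbers pair the libraries is not stated. Without both those libraries 4 PKA genes, 13 anchored enzymes, 6 cardiac targets, 4 of the remaining partners and 4706 of 15381 tested genes passed. DESeq2 called 7 other anchors, 3 PKA genes, 4 cardiac targets and 3210 of all genes. Equal totals gave 2 other anchors, and a pseudocount of 10 gave 2 PKA genes. No filter gave 2 anchored enzymes and 0 cardiac targets, eBayes without a trend 1 and 0, and equal upper quartiles and robust eBayes 0 cardiac targets each.

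Leaving out 1 library at a time gave 0 to 1 members, 1 to 3 other anchors, 0 to 4 anchored enzymes, 0 to 2 cardiac targets and 792 to 2192 of all genes. Estimates near 0 changed sign: AKAP1 was -0.023 with equal upper quartiles and -0.26 with equal totals, and in these fits AKAP1 ran from -0.27 to 0.41, AKAP6 from -0.67 to 0.016, AKAP8 from -0.25 to 0.0022 and AKAP10 from -0.38 to 0.20. Counting error is largest for AKAP5, which had the fewest reads of the members (21 to 94 a library).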
